A study of Mus musculus with 16 samples.

Results

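The genes of cholesterol and fatty acid synthesis were followed in 16 bulk mammary tumours of obese mice. The set was a list of 39 named genes, picked by symbol, out of 47311 genes to which transcripts were matched. All 39 passed the filter on low counts and were among the 16154 genes tested. The list has 4 arms: 17 enzymes of sterol synthesis from Hmgcs1 to Dhcr7, 5 genes that control the SREBP transcription factors, 12 lipogenic enzymes that make, elongate and desaturate fatty acids, and 5 genes of the liver X receptors (LXR) and sterol transport.

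Of the tumours, 8 came from mice given an antibody against PD-1, an inhibitory receptor of T cells, and 8 from mice given an IgG2a isotype control. Both antibodies were injected into the peritoneum at 200 ug, from day 3 after the injection of cells and every 3 days, until sacrifice at day 21. What both groups share is the host and the tumour line: female C57BL/6J mice, a high-fat diet with 60% of energy from fat between weeks 8 and 26 of age, and 250000 E0771-luciferase cells in 25% matrigel placed in mammary gland 4. E0771 is a mouse mammary carcinoma line of C57BL/6 origin, here with a luciferase reporter, so host cells and tumour cells carry the same genes and a bulk value cannot be divided between them. Each tumour has an animal number of its own, and no lean or untreated group was analysed here.

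Cells make cholesterol from acetyl-CoA through mevalonate, squalene and lanosterol. SREBP-2, encoded by Srebf2, drives these enzymes when membrane sterol is low; SREBP-1, encoded by Srebf1, drives mainly the fatty acid enzymes; SCAP escorts both to the Golgi for cleavage, and the INSIG proteins hold SCAP in the endoplasmic reticulum when sterol is plentiful. LXRs sense oxidised sterols and switch on the exporters Abca1 and Abcg1, as well as Srebf1.

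Each tumour had 59036535 to 82591064 estimated reads, of which the 39 genes took 0.276 to 0.62%, and a single member had between 96 and 241750 reads in a tumour. In bulk tissue, fewer cells of a type and less RNA per cell cannot be told apart. Of the 11 mammary epithelial markers 8 were tested. The 11 summed to 50.0 to 147 CPM (counts scaled to each tumour's total) under anti-PD-1 and 52.8 to 462 CPM under IgG2a, and Wap was at 0 in all tumours. Before any result of the set, 3 tumours stood apart. In IgG2a replicate 7 the adipocyte markers summed to 13535 CPM, against 52.8 to 308 CPM in the 13 tumours other than these 3, the erythroid markers to 24595 CPM against 38.2 to 219 CPM, the endothelial markers to 1539 CPM against 140.2 to 289.9 CPM, and the proliferation genes to 645 CPM against 1409 to 1775 CPM. In IgG2a replicate 3 the skeletal muscle markers summed to 29535 CPM, against 2.02 to 176 CPM, the adipocyte markers to 2419 CPM and the erythroid markers to 792 CPM. In anti-PD-1 replicate 6 the 6 skin and sebaceous markers, of which 1 was tested, summed to 18.9 CPM, against 0.263 to 1.89 CPM. The same tumour had 38993 transcripts detected, against up to 55476 elsewhere, and relative to the median tumour its counts were lower for longer transcripts across all genes (Spearman rho = -0.46). Results of the 39 genes that rest on these tumours are given with and without them.

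Promoter windows of the set are shown because the sterol genes moved together from tumour to tumour, as described further on. RefSeq windows of GRCm38.p6, from 250 bases before to 50 after a gene's start, were matched by symbol for 31 of the 39 genes. The letters CCAAT, the box bound by NF-Y, a partner of SREBP on sterol promoters, stood on at least 1 strand in a window of 14 of 14 sterol enzymes, 4 of 5 SREBP control genes, 6 of 9 lipogenic enzymes and 0 of 3 LXR and transport genes, against 41.1% of all 27025 genes with a window. The letters GGGCGG, the Sp1 box, stood in windows of 13 of 14 sterol enzymes, 5 of 5 control genes, 4 of 9 lipogenic enzymes and 1 of 3 LXR and transport genes, against 38.2% of all genes. The letters TCACNCCAC, a core of the sterol regulatory element with N for any base, stood in Hmgcs1 alone of the 31 genes, against 1.44% of all genes, and the E-box CACGTG in 7 of 31, against 8.09%. Each motif was searched on both strands and by itself, so that matches of different motifs may overlap, and a match is a description of the window, not evidence of binding. The windows below run 5′ to 3′ on the gene's strand, with CCAAT or its complement ATTGG, and the sterol element, in capitals. They are Hmgcs1 (chr13:119690101-119690400, + strand), Idi1 (chr13:8885356-8885655, + strand) and Insig1 (chr5:28071162-28071461, + strand), whose pairs had r of 0.92 to 0.97 across the 13 tumours other than the 3 above and of 0.27 to 0.78 across all 16, and Fasn (chr11:120824498-120824797, - strand) and Ebp (chrX:8193463-8193762, - strand), whose pairs with these 3 had r of -0.06 to 0.24 across the 13 tumours and of 0.0006 to 0.37 across 16.
Hmgcs1: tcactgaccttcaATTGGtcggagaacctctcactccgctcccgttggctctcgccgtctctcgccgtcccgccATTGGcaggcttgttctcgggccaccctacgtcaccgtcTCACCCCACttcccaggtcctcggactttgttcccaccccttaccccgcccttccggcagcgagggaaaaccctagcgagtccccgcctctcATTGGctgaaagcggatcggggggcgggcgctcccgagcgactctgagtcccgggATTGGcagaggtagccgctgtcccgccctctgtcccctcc
Idi1: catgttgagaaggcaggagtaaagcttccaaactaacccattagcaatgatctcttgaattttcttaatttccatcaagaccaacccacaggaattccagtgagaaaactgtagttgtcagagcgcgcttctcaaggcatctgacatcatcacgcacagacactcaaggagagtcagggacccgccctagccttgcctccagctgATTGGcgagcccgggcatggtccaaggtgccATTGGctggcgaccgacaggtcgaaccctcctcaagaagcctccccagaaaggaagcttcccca
Insig1: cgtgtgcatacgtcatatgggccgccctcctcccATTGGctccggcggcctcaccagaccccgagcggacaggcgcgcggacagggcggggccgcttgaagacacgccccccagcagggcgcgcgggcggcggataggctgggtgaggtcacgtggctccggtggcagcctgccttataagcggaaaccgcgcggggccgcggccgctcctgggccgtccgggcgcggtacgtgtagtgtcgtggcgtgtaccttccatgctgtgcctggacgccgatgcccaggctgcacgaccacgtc
Fasn: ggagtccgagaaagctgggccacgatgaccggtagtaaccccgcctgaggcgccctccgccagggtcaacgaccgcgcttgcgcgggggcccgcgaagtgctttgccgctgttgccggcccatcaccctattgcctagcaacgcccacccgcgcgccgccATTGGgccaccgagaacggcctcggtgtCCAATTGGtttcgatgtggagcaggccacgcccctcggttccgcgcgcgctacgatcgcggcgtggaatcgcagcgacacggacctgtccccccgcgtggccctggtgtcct
Ebp: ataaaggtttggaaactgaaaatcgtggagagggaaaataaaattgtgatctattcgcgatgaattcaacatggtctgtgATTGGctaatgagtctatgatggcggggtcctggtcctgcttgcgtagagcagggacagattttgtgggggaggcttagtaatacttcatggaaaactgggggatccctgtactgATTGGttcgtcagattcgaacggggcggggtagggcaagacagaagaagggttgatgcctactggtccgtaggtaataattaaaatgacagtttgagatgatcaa
The sterol element of Hmgcs1 began 137 bases before the gene's start. Hmgcs1 had 4 NF-Y boxes in its window, Fasn 3, Idi1 and Ebp 2 each and Insig1 1. Of those of Fasn, 2 overlap on opposite strands in the stretch CCAATTGG.

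The set was expressed over a wide range of levels, from abundant sterol and fatty acid enzymes to barely detected isoforms. On the authors' TPM scale, which is per transcript length and summed per gene, Fdps, which makes farnesyl pyrophosphate, had the highest median over 16 tumours at 221 TPM. Fasn, the fatty acid synthase, followed at 203 TPM and Scd2, a stearoyl-CoA desaturase, at 117 TPM. Msmo1 at 90.3 TPM, Srebf1 at 89.4 TPM and Srebf2 at 89.2 TPM lay within each other's interquartile ranges. At the low end were Abca1 at 3.76 TPM, the acetyl-CoA synthetase Acss2 at 3.61 TPM and Acacb, the acetyl-CoA carboxylase of the mitochondrial surface, at 0.553 TPM. Short non-coding transcripts raised some of these sums. With protein-coding transcripts alone Fasn had a median of 77.0 TPM, Srebf1 43.1 TPM and the lanosterol synthase Lss 7.95 TPM in place of 24.1 TPM, and Fdps had 217 TPM and Scd2 117 TPM. For Acacb the coding median was 0.069 TPM, with coding transcripts listed at 0 in at least 1 tumour of each group, and a median of 13.8% of its reads was on coding transcripts. Within families, Acaca exceeded Acacb and Elovl5 exceeded Elovl6 in all 16 tumours, with coding TPM ratios of at most 0.365 for Acacb over Acaca and 0.313 for Elovl6 over Elovl5. Scd2 exceeded Scd1 in all tumours but 1: the coding TPM of Scd1 over Scd2 was 0.194 to 0.380 under anti-PD-1 and, outside IgG2a replicate 7, 0.194 to 0.430 under IgG2a.

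**Figure D1:**
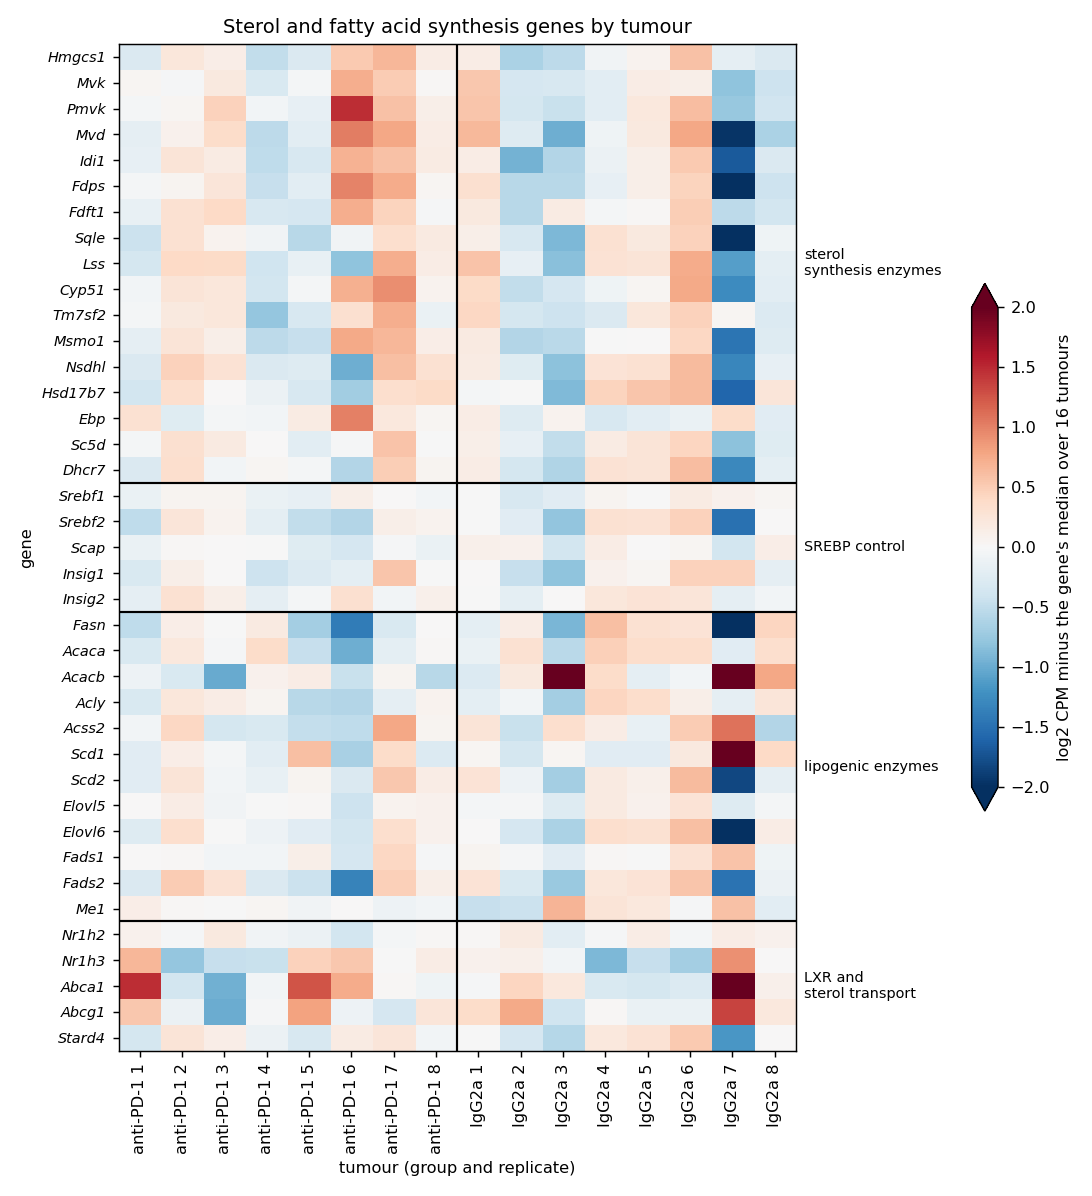
Log2 CPM of each of the 39 genes (rows, by arm) in each tumour (columns, anti-PD-1 replicates then IgG2a replicates), minus the gene's median over 16 tumours; colours end at 2 log2 units. Most sterol enzymes shared a colour within a tumour, IgG2a replicate 7 lay below the range of the 13 other tumours for 13 of 17 of them and was high for Scd1, Acacb and Abca1, and the 8 anti-PD-1 columns did not form a block apart from the 8 IgG2a columns.

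The sterol synthesis enzymes moved together from tumour to tumour. The median Pearson r over the 136 pairs of the 17 enzymes was 0.68 across 16 tumours, with 130 pairs above 0, and 0.82 across the 13 tumours, against a median of -0.0015 over all pairs of tested genes. These are descriptions over tumours that also share differences in cell content and RNA, with no test. Hmgcs1, which makes HMG-CoA, had r = 0.98 with the mean of the other 16 enzymes across 13 tumours and 0.77 across 16. Msmo1 had 0.96 and 0.96, Fdps 0.96 and 0.93, and Cyp51, the lanosterol demethylase, 0.95 and 0.96. Across 16 tumours the sterol score, the mean log2 CPM of the 17 enzymes, had r = -0.75 with the adipocyte, -0.73 with the erythroid and -0.67 with the macrophage markers and 0.69 with the proliferation genes. Across 13 these were -0.31, -0.10, -0.32 and 0.19, and the part of these markers in the pattern was not tested. The span over the 13 tumours was modest, with SDs of 0.21 to 0.46 log2 CPM per gene, and Idi1, the isopentenyl isomerase, had the widest range at 1.53 log2 units. The pair of Hmgcs1 with Sqle, the squalene epoxidase, was tested by permutation as 1 of 4 gene pairs. Across 16 tumours r was 0.48 (two-sided permutation p = 0.053, adjusted over 4 pairs 0.106) and rho was 0.74 (adjusted permutation p = 0.0031). Without the 2 tumours farthest from the median of Hmgcs1, anti-PD-1 replicate 7 and IgG2a replicate 2, r was 0.47. Without IgG2a replicate 7 alone r was 0.73 (adjusted permutation p = 0.0045), without all 3 tumours it was 0.80 (adjusted permutation p = 0.0019), and within the groups it was 0.68 under anti-PD-1 and 0.44 under IgG2a.

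Ebp, the sterol isomerase, was the exception in the sterol arm. Its r with the mean of the other 16 enzymes was -0.03 across 16 tumours and 0.14 across 13. Ebp ran opposite to Fasn, with r of -0.81 across 16 tumours and -0.90 across 13. Hsd17b7, which reduces a sterol ketone, followed the arm less closely, with 0.68 and 0.54. Ebp has the shortest median effective length of the arm, 813 bases, and Hsd17b7 the longest, 4079 bases. Across the 13 tumours, Ebp had r = -0.91 with the tumour's own relation of counts to transcript length over all genes, and Hsd17b7 had 0.54. The part of this relation in the pattern was not tested.

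The lipogenic arm did not move as 1 unit. The median r over its 66 pairs was 0.14 across 16 tumours and 0.27 across 13. Across 13 tumours one group was formed by Fasn with Acaca, the cytosolic acetyl-CoA carboxylase (r = 0.97), and with Acly, which makes cytosolic acetyl-CoA from citrate (r = 0.93). Acly with Fasn was the second tested pair: across 16 tumours r was 0.75 (adjusted permutation p = 0.0026) and rho 0.86 (adjusted permutation p = 1.2e-04), with r of 0.67 without anti-PD-1 replicate 6 and IgG2a replicate 3, the tumours farthest from the median of Acly. Within the groups r was 0.92 under anti-PD-1 and 0.68 under IgG2a. Their median r with the 17 sterol enzymes across 13 tumours was -0.02 for Fasn, -0.10 for Acaca and 0.14 for Acly. Across the same 13 tumours the enzymes that desaturate and elongate lay nearer to the sterol arm, with a median r of 0.83 for the delta-6 desaturase Fads2, 0.78 for Scd2, 0.75 for the elongase Elovl6, 0.65 for the delta-5 desaturase Fads1 and 0.51 for the elongase Elovl5. Acss2, which makes acetyl-CoA from acetate, had 0.79. Me1, the malic enzyme, at 0.11, Scd1 at 0.23 and Acacb at -0.38 followed neither group. This division was seen only in part across all 16 tumours. There the median r with the sterol enzymes was -0.09 for Acaca and 0.12 for Acly, but 0.37 for Fasn. It was 0.54 for Fads2, 0.80 for Scd2, 0.76 for Elovl6 and 0.31 for Elovl5. Fads2, Elovl6, Elovl5 and Scd2 had r of 0.84, 0.84, 0.78 and 0.75 with Fasn itself. Across 16 tumours the median r with the sterol enzymes was -0.04 for Acss2, -0.14 for Fads1, -0.44 for Me1, -0.59 for Scd1 and -0.64 for Acacb. Fasn, Acaca and Acly had r of 0.81, 0.83 and 0.68 with the relation of counts to transcript length across 13 tumours, and Fads2, Scd2 and Acss2 had 0.08, -0.01 and -0.14; its part in the grouping was not tested.

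**Figure D2:**
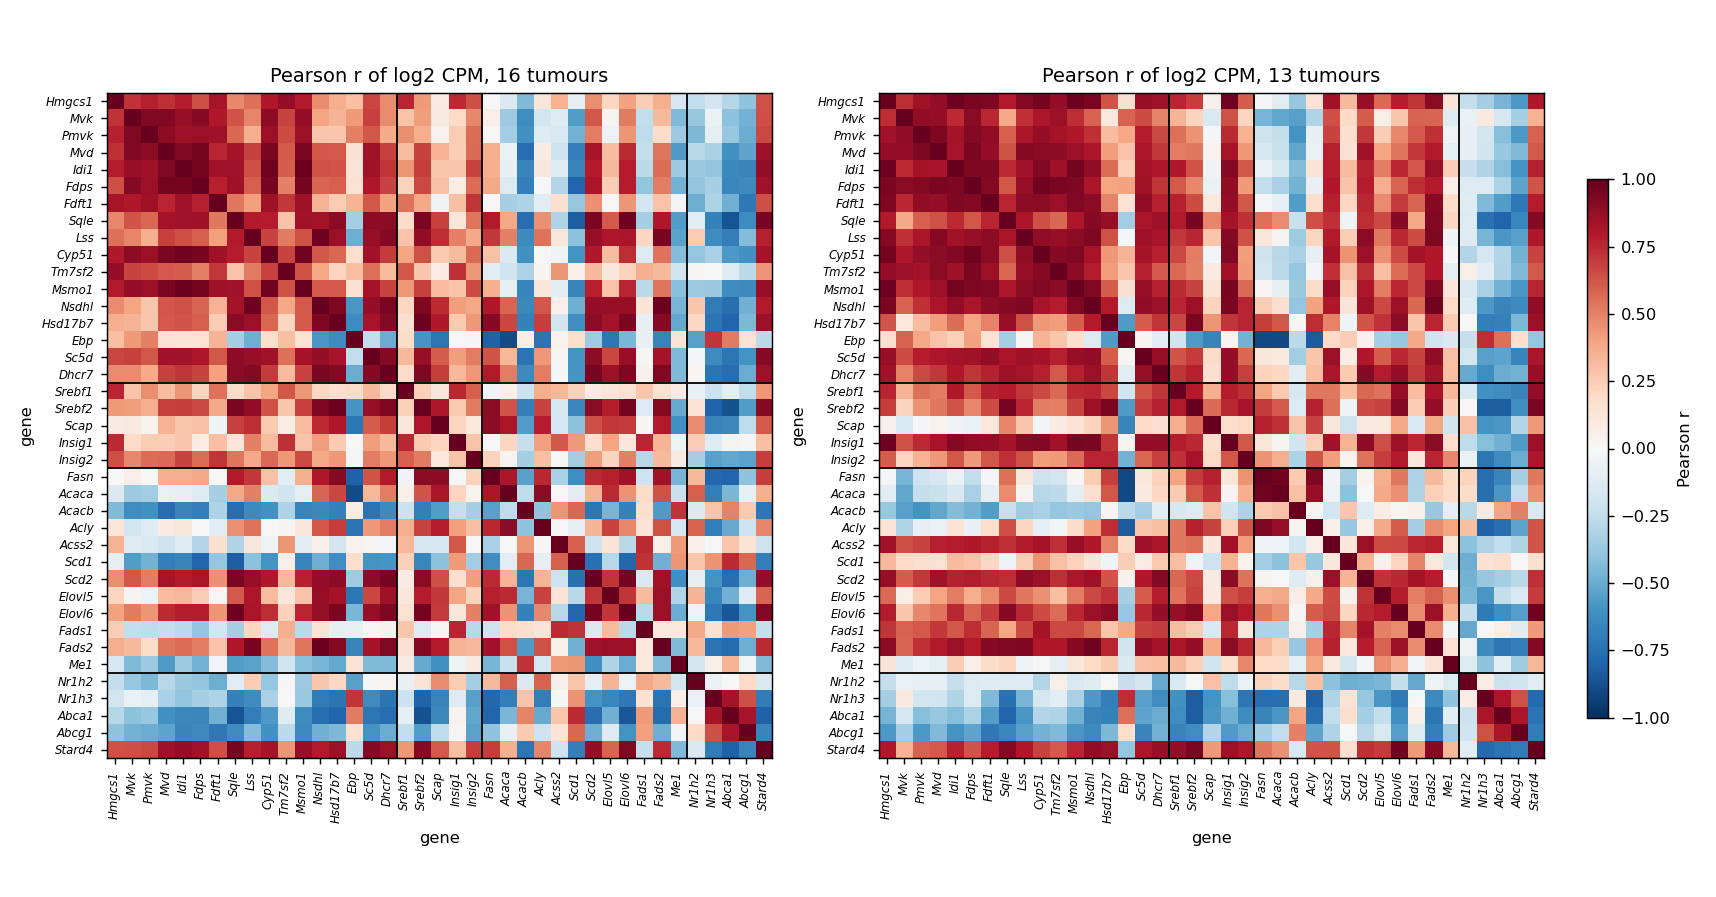
Pearson r of log2 CPM between all pairs of the 39 genes, across 16 tumours (left) and across the 13 tumours other than anti-PD-1 replicate 6 and IgG2a replicates 3 and 7 (right); lines separate the 4 arms. The sterol block has a median r of 0.68 on the left and 0.82 on the right, Ebp is pale or blue within it, and Abca1, Abcg1 and Nr1h3 form a block that runs opposite to most sterol enzymes.

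Arm against arm, the relation of sterol to lipogenic genes differed with the tumours included and with the scale. An arm's score is the mean log2 CPM of its members. Across 16 tumours the sterol and lipogenic scores had r = -0.07 and rho = 0.11, within anti-PD-1 r was 0.11 and within IgG2a 0.11. Without IgG2a replicates 3 and 7, the tumours farthest from the median sterol score, r was 0.21, and without anti-PD-1 replicate 6 as well it was 0.61 with rho = 0.62. On log2(TPM + 1) r across 16 tumours was 0.42 and rho 0.60. The sterol score minus the lipogenic score, relative to its median over tumours, was 0.92 in anti-PD-1 replicate 6, -1.37 in IgG2a replicate 7 and -0.63 in IgG2a replicate 3, and between -0.38 and 0.37 in the other 13. Hmgcs1 with Fasn, the third tested pair, had r = 0.0028 (permutation p = 0.99, adjusted 0.99) and rho = 0.0088 (adjusted permutation p = 0.98) across 16 tumours. Across 13 tumours it had r = 0.0049, and on log2(TPM + 1) across 16 tumours r = 0.38 (adjusted permutation p = 0.20) and rho = 0.60 (adjusted permutation p = 0.022).

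**Figure D3:**
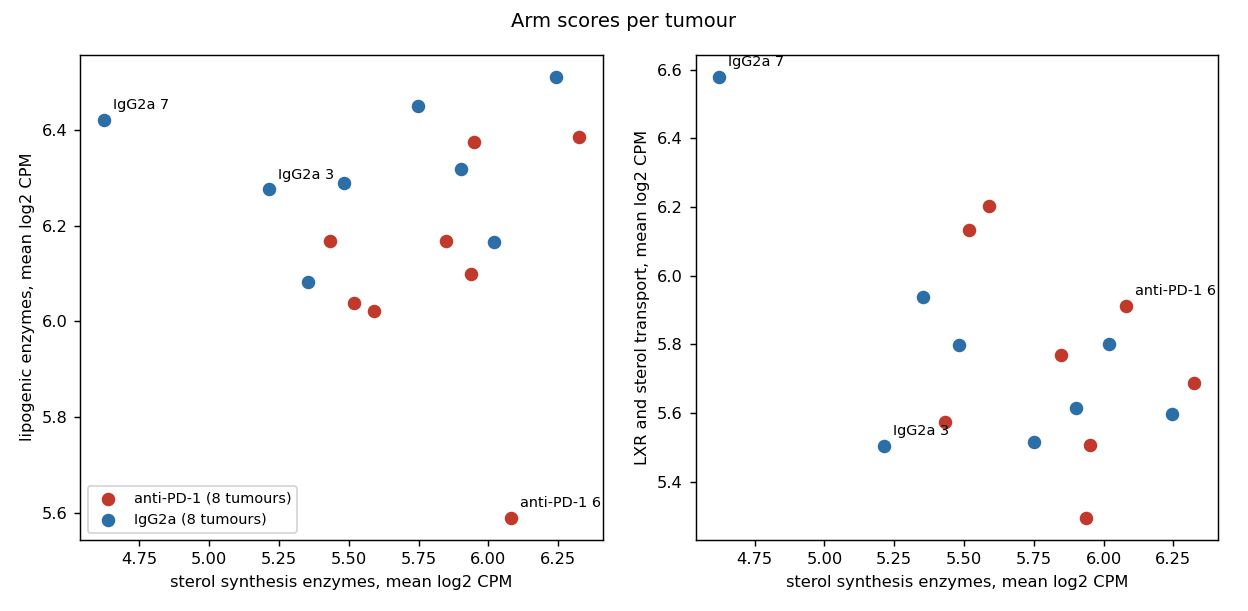
Mean log2 CPM of the 17 sterol synthesis enzymes (horizontal axes) against that of the 12 lipogenic enzymes (left) and of the 5 LXR and sterol transport genes (right), 1 point per tumour, with the 3 tumours that stood apart named. IgG2a replicate 7 lies alone at a sterol score of 4.62, anti-PD-1 replicate 6 lies alone at a lipogenic score of 5.59, and the groups overlap on every axis.

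Among the control genes, Insig1 moved most closely with the synthesis enzymes across 13 tumours, followed by Srebf1, Srebf2 and Insig2. Insig1, itself a target of SREBP, had a median r of 0.88 with the 17 enzymes across 13 tumours and of 0.29 across 16, and with Hmgcs1 its r was 0.97 and 0.74. Srebf1 had a median r of 0.67 across 13 tumours and of 0.31 across 16, Srebf2 of 0.65 and 0.68, Insig2 of 0.57 and 0.54, and Scap of 0.08 and 0.29. Among its closest partners, Srebf2 had r = 0.95 with Sqle, 0.94 with Hsd17b7 and 0.92 with Elovl6 across 13 tumours, and 0.94, 0.98 and 0.96 across 16. Srebf1 varied least, with a CPM range of 1.40 times between the lowest and the highest tumour, and had r = 0.76 with Hmgcs1 in both sets of tumours. The score of the 5 control genes had r = 0.77 with the sterol score across 16 tumours and 0.80 across 13, and -0.67 and -0.73 with the macrophage markers, whose part was not tested. Scap had r = 0.78 with Fasn across 13 tumours and 0.89 across 16, and 0.04 and 0.08 with Hmgcs1.

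The LXR and transport arm split by direction. Abca1 and Abcg1, the sterol exporters, and Nr1h3, which encodes LXR-alpha, moved together, with r of 0.82 for Abca1 with Abcg1 and 0.81 for Abca1 with Nr1h3 across 13 tumours and of 0.82 and 0.84 across 16. Nr1h2, which encodes LXR-beta, varied little and followed none of them, with r = -0.18 to the mean of the other 4 genes across 13 tumours and 0.0096 across 16. Stard4, a cytosolic sterol carrier, went with the synthesis enzymes: across 13 tumours it had r = 0.97 with Elovl6 and 0.94 with Srebf2, and -0.82 with the mean of the other 4 genes of its arm, and across 16 tumours these were 0.93, 0.91 and -0.80. Abca1 ran opposite to Srebf2, with r of -0.87 across 16 tumours and -0.82 across 13. Hmgcs1 with Abca1, the last tested pair, had r = -0.28 (adjusted permutation p = 0.40) and rho = -0.42 (adjusted permutation p = 0.15) across 16 tumours, and -0.46 across 13. The score of this arm moved with the 11 macrophage markers, with r of 0.91 across 16 tumours and 0.91 across 13, and with the 7 T cell markers, with 0.35 and 0.77. The macrophage markers summed to 1074 to 3075 CPM under anti-PD-1 and 857 to 7402 CPM under IgG2a, with none at 0 in all tumours, and their part in the pattern was not tested.

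The 3 tumours differed in which genes were extreme. In IgG2a replicate 7, Scd1 reached 3895 CPM, against 77.0 to 183 CPM under anti-PD-1 and 94.6 to 158 CPM in the other 7 IgG2a tumours. In the same tumour Scd2 was at its lowest, 148 CPM, and the coding TPM of Scd1 over Scd2 was 29.8. Fdps had 37.7 CPM there, Sqle 27.4 CPM and Fasn 158 CPM, all the lowest of 16 tumours, whereas Abca1 had 282 CPM, the highest. In this tumour 13 of the 17 sterol enzymes lay below the range of the 13 tumours and 1 above it, compared with 32.4% of all tested genes below and 35.4% above. In IgG2a replicate 3, 8 of 17 sterol enzymes and 8 of 12 lipogenic enzymes lay below that range, compared with 19.8% of all genes, and Acacb, the carboxylase form of muscle and heart, reached 73.0 CPM in this tumour of high muscle and adipocyte markers, against 1.49 to 3.37 CPM under anti-PD-1 and 2.50 to 34.6 CPM in the other 7 IgG2a tumours. In anti-PD-1 replicate 6, 8 of 17 sterol enzymes lay above the range and 4, Lss, Nsdhl, Hsd17b7 and Dhcr7, lay below it. Of the lipogenic enzymes 9 of 12 lay below it. Of all genes 26.4% lay above and 32.1% below. The adipocyte, muscle and erythroid markers and the length relation given above moved with these tumours, and their part was not tested.

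**Figure D4:**
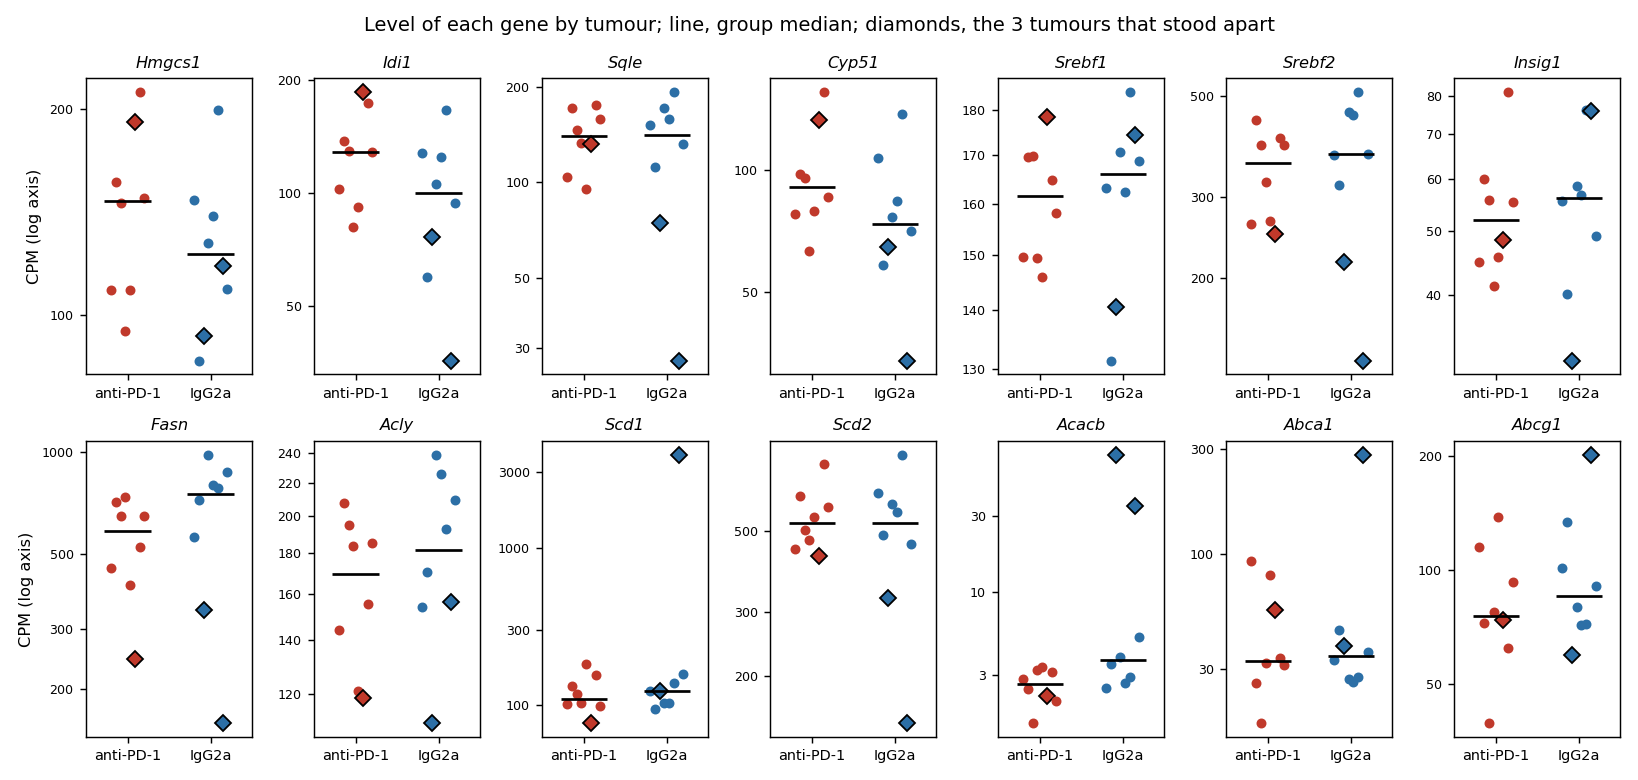
CPM of 14 genes in each tumour on log axes, anti-PD-1 at the left of each panel and IgG2a at the right; points are tumours, lines are group medians of 8, and diamonds are the 3 tumours that stood apart. The groups overlap in every panel, and the highest Scd1, Acacb and Abca1 values, 3895, 73.0 and 282 CPM, are IgG2a diamonds.

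Between anti-PD-1 and IgG2a, none of the 39 genes passed the threshold. The edgeR quasi-likelihood test with Benjamini-Hochberg adjustment called 0 of 39 members and 0 of 16154 genes (0%) at an adjusted p under 0.05, and the smallest adjusted p was 0.434. At an unadjusted p under 0.05, 0 members were higher, against 3.47% of all genes, and 2 were lower, against 7.90%, which makes 2 of 39 in either direction against 11.4%. DESeq2 called 1 gene, no member, and limma-voom called 0. By direction of the estimate, 22 members were higher and 17 lower under anti-PD-1, whereas 56.9% of all genes had an estimate below 0. The groups failed to overlap for 0 of 39 members, against 2 of the 16154 genes (0.0124%). No anti-PD-1 tumour lay above the IgG2a median for Scap, Fasn and Acacb, which is 3 of 39 members against 4.92% of all genes, and all 8 did for Pmvk, 1 of 39 against 4.74%. Without the 3 tumours 0 members were called, and 4 of 39 passed the unadjusted threshold, against 15.8% of 16352 genes: Ebp at a log2 fold change of 0.22, Scap at -0.16, Fasn at -0.43 and Acaca at -0.33, with a smallest adjusted p of 0.276 by edgeR's quasi-likelihood test. Across the 13 tumours Ebp, Scap, Fasn and Acaca had r of -0.91, 0.58, 0.81 and 0.83 with the relation of counts to transcript length. The part of this relation in the 4 estimates was not tested.

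The sterol enzymes had mostly small positive estimates, whose median was near 0 without the 3 tumours. Of the 17, 16 were higher under anti-PD-1, at a median log2 fold change of 0.21, within a range of -0.08 to 0.45, against a median of -0.05 over all genes. Without the 3 tumours 10 of 17 were higher, with a median of 0.02 within a range of -0.27 to 0.22. With limma-voom 17 of 17 were higher, with a median of 0.24, and with quality weights in limma-voom 12 of 17, with a median of 0.10. Leaving out anti-PD-1 replicate 7 alone or IgG2a replicate 7 alone gave 12 of 17, with medians of 0.17 and 0.18. Leaving out IgG2a replicate 5 alone or IgG2a replicate 6 alone gave 17 of 17, with medians of 0.22 and 0.31. The mean sterol score was 5.83 ± 0.30 under anti-PD-1 and 5.57 ± 0.52 under IgG2a (mean ± SD, n = 8 each), a difference of 0.26 ± 0.21 (SE) that became 0.13 without IgG2a replicate 7 alone and 0.0007 without all 3 tumours. Hmgcs1 had 94.8, 147 and 212 CPM as lowest, median and highest under anti-PD-1, against 85.8, 123 and 199.7 CPM under IgG2a, giving a log2 fold change of 0.19 ± 0.19 (SE). Idi1 had 81.2, 129 and 186 CPM under anti-PD-1, against 35.8, 100.1 and 166 CPM under IgG2a, with 0.38 ± 0.26. For Hmgcs1 5 of 8 and for Idi1 6 of 8 anti-PD-1 tumours lay above the IgG2a median, and the groups overlapped. Sqle had 95.2, 139.5 and 176 CPM under anti-PD-1, against 27.4, 141 and 193 CPM under IgG2a, with 0.13 ± 0.28. Cyp51 had 63.2, 90.7 and 156 CPM under anti-PD-1, against 33.9, 73.7 and 138 CPM under IgG2a, with 0.32 ± 0.24. The lowest IgG2a value of Idi1, Sqle and Cyp51 is replicate 7, and their adjusted p values by edgeR's quasi-likelihood test were 0.484, 0.836 and 0.528. The highest estimates of the arm were those of Fdps and of Pmvk, the phosphomevalonate kinase. Fdps had 136, 195 and 373 CPM under anti-PD-1, against 37.7, 154 and 257 CPM under IgG2a, with 0.45 ± 0.30. Pmvk had 20.6, 24.3 and 63.9 CPM under anti-PD-1, against 13.6, 18.9 and 35.2 CPM under IgG2a, with 0.43 ± 0.26, and its highest value is anti-PD-1 replicate 6. Ebp had 24.2, 30.8 and 57.5 CPM under anti-PD-1, against 22.9, 25.5 and 36.9 CPM under IgG2a, with 0.27 ± 0.16. Hsd17b7 alone had a negative estimate, -0.08 ± 0.27, and Lss, Nsdhl, Tm7sf2 and Dhcr7 had estimates of 0.010 to 0.09.

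The control genes had estimates of -0.08 to 0.01, which with counts rebuilt from TPM and length became -0.41 to -0.03, with 5 of 5 lower and a median of -0.22. Srebf1 had 146, 162 and 178 CPM under anti-PD-1, against 131, 166 and 184 CPM under IgG2a, giving a log2 fold change of -0.01 ± 0.08 (SE) with a 95% interval of -0.18 to 0.16. Srebf2 had 249, 357 and 442 CPM under anti-PD-1, against 132, 372 and 509.6 CPM under IgG2a, with -0.06 ± 0.23. Insig1 had 41.3, 51.9 and 81.2 CPM under anti-PD-1, against 31.8, 56.1 and 76.3 CPM under IgG2a, with -0.04 ± 0.18 and an interval of -0.42 to 0.34. Of the 3, the interval of Srebf2 was the widest, at -0.54 to 0.43. Scap had 67.1, 80.7 and 86.7 CPM under anti-PD-1, against 65.6, 88.3 and 94.5 CPM under IgG2a, with -0.08 ± 0.09 and an adjusted p of 0.682 by edgeR's quasi-likelihood test.

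Of the 12 lipogenic enzymes 3 had higher and 9 lower estimates, at a median log2 fold change of -0.14. Their mean score was 6.11 ± 0.25 under anti-PD-1 and 6.31 ± 0.14 under IgG2a (mean ± SD, n = 8 each), a difference of -0.21 ± 0.10 (SE) that became -0.13 without anti-PD-1 replicate 6 alone and -0.13 without all 3 tumours. Fasn had 246, 587 and 736 CPM under anti-PD-1, against 158, 754 and 985 CPM under IgG2a, giving a log2 fold change of -0.26 ± 0.31 (SE), which became 0.11 with counts rebuilt from TPM and length and -0.43 without the 3 tumours. Acly had 118, 169.6 and 208 CPM under anti-PD-1, against 110.1, 182 and 239 CPM under IgG2a, with -0.15 ± 0.16. Acaca had 49.7, 91.1 and 127 CPM under anti-PD-1, against 67.1, 122 and 136 CPM under IgG2a, with -0.27 ± 0.18. The 3 anti-PD-1 medians lay below those of IgG2a, and the groups overlapped. The elongases and fatty acid desaturases other than Scd1 and Scd2 had estimates near 0, at -0.01 ± 0.10 for Elovl5, 0.03 ± 0.26 for Elovl6, -0.07 ± 0.12 for Fads1 and 0.03 ± 0.28 for Fads2. Scd2 had 427, 525 and 764 CPM under anti-PD-1, against 148, 527 and 812 CPM under IgG2a, with 0.12 ± 0.25. Scd1 had 77.0, 111 and 183 CPM under anti-PD-1, against 94.6, 124 and 3895 CPM under IgG2a, with -2.28 ± 0.82 (unadjusted p = 0.013 and adjusted p = 0.434 by edgeR's quasi-likelihood test). Without IgG2a replicate 7 it was 0.0080, and without the 3 tumours 0.08. Acacb had 1.49, 2.65 and 3.37 CPM under anti-PD-1, against 2.50, 3.71 and 73.0 CPM under IgG2a, with -2.62 ± 0.73 (unadjusted p = 0.0023 and adjusted p = 0.434 by the same test). Without IgG2a replicate 3 it was -1.60, and without the 3 tumours -0.39 (adjusted p = 0.408 by the same test).

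In the LXR and transport arm 2 of 5 estimates were higher and 3 lower, with a median of -0.07, and with counts rebuilt from TPM and length 1 was higher and 4 lower, with a median of -0.26. Abca1 had 17.0, 32.7 and 92.8 CPM under anti-PD-1, against 26.1, 34.3 and 282 CPM under IgG2a, giving a log2 fold change of -0.48 ± 0.53 (SE) that became 0.47 without IgG2a replicate 7 and 0.46 without the 3 tumours. Its 2 highest anti-PD-1 values, 92.8 and 79.8 CPM, are replicates 1 and 5, where the macrophage marker scores of 7.58 and 7.42 were also the highest of the group. Abcg1 had 39.5, 75.6 and 138 CPM under anti-PD-1, against 59.6, 85.5 and 202 CPM under IgG2a, with -0.27 ± 0.27. Nr1h3 had an estimate of 0.12 ± 0.26, Nr1h2 of -0.07 ± 0.08 and Stard4 of 0.06 ± 0.19, and the groups overlapped for each.

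**Figure D5:**
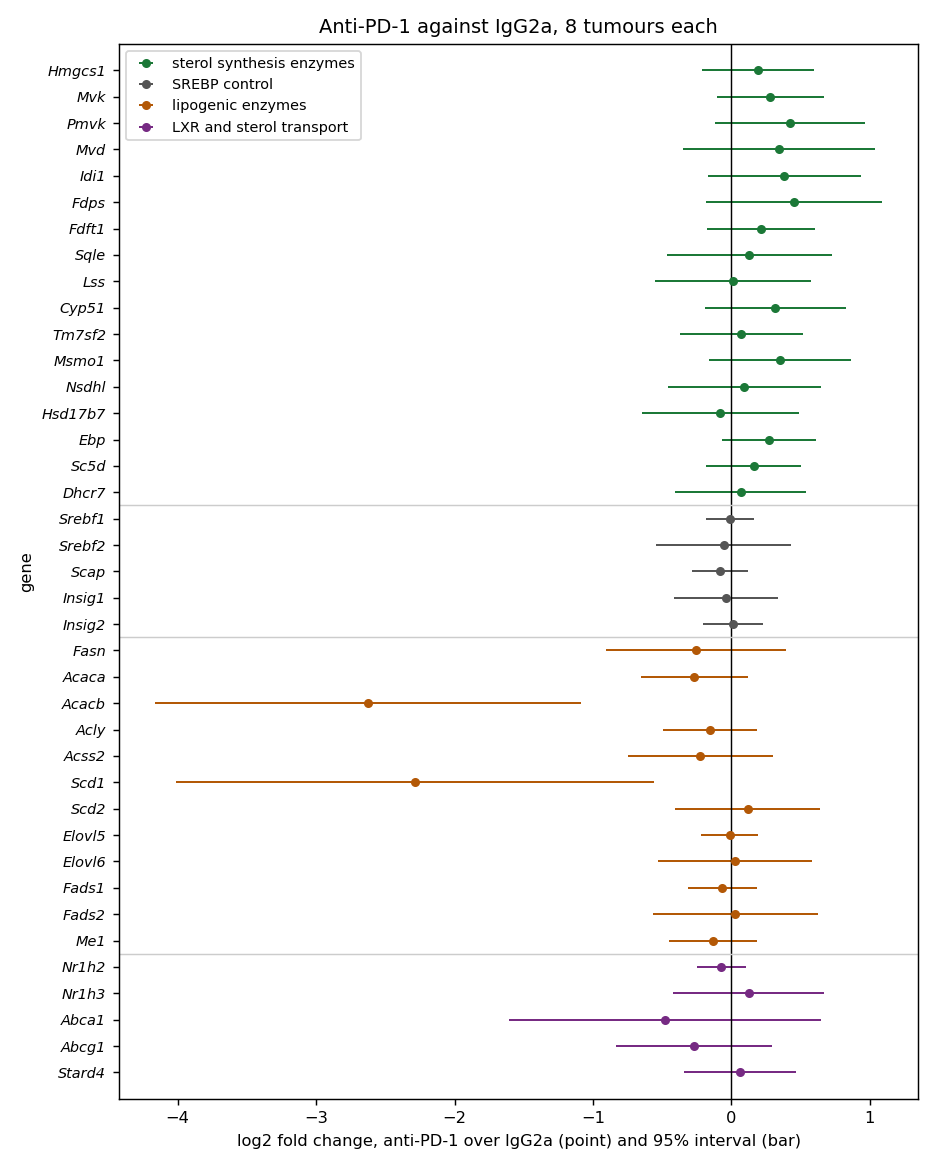
Log2 fold change of each of the 39 genes, anti-PD-1 over IgG2a, with its 95% interval from edgeR, grouped and coloured by arm. The sterol estimates lie between -0.08 and 0.45 with intervals that include 0, and the 2 intervals that exclude 0, those of Acacb and Scd1, belong to genes with an adjusted p of 0.434.

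The relation of counts to transcript length was not spread evenly over the groups. Across all genes, the Spearman rho of a tumour's deviation from the median with length was -0.12 ± 0.22 under anti-PD-1 and 0.13 ± 0.25 under IgG2a (mean ± SD, n = 8 each), above 0 in 2 of 8 anti-PD-1 tumours and in 6 of 8 IgG2a tumours, with ranges of -0.46 to 0.27 and -0.27 to 0.40 that overlap. The sterol enzymes had a median effective length of 1762 bases and the lipogenic enzymes of 3385 bases. With counts rebuilt from TPM and length, 15 of 17 sterol enzymes were higher, at a median log2 fold change of 0.20, and 3 of 12 lipogenic enzymes, at a median of -0.11. These counts use each gene's mean length over all tumours, so a tumour's relation of counts to length across genes can remain in them. With the range of animal numbers, the closest the labels come to a batch, as a covariate, 16 of 17 sterol and 3 of 12 lipogenic enzymes were higher.

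Other genes of the same pathways, taken from lists that do not overlap the 39, were also without a call. Of 27 further SREBP pathway genes 26 were tested, 13 were higher and 13 lower. At an unadjusted p under 0.05, where 7.90% of all genes were lower, 4 of these 26 passed, all lower under anti-PD-1. These were Lpin1, a phosphatidate phosphatase, with a mean of 12.7 ± 3.90 CPM under anti-PD-1, against 33.8 ± 33.4 CPM under IgG2a (mean ± SD, n = 8 each), Gpam, the first acyltransferase of glycerolipid synthesis, at 9.57 ± 3.86 and 18.3 ± 7.68 CPM, the acyl-CoA synthetase Acsl1 at 29.2 ± 7.57 and 92.6 ± 156 CPM, and the triglyceride enzyme Dgat2 at 5.28 ± 4.44 and 29.5 ± 72.7 CPM. Of 15 further LXR and cholesterol handling genes, 4 were higher and 11 lower, and 5 passed, all lower, against the same 7.90% of all genes. Those of smallest p were Rxra at 63.9 ± 5.42 and 79.2 ± 19.0 CPM and Ncoa1 at 9.73 ± 1.27 and 17.1 ± 14.4 CPM. Next came Pltp, a phospholipid transfer protein, at 124 ± 31.9 and 297 ± 477 CPM, and Lipa, the lysosomal acid lipase, at 75.0 ± 17.7 and 139 ± 159 CPM. Each had an adjusted p of 0.434 by edgeR's quasi-likelihood test. All 12 tested adipocyte markers of 13 also passed the unadjusted threshold, all lower under anti-PD-1, against 7.90% of all genes. The 13 markers summed to 67.1 to 308 CPM under anti-PD-1 and 52.8 to 13535 CPM under IgG2a. IgG2a replicates 7 and 3 had 13535 and 2419 CPM, and the 13 tumours other than the 3 that stood apart had 52.8 to 308 CPM. Adipocytes express several of the pathway genes above, and the part of the markers in the values of these genes was not tested.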

How the data were processed

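Per the labels' protocols, tumour RNA with an integrity number above 5 was enriched with oligo-dT and made into non-directional libraries, so overlapping antisense reads cannot be told apart. Per the file headers, the authors deposited estimated counts per transcript, which need not be whole, and TPM, scaled per tumour and per effective length. The submitters' processing notes name GRCm38, edgeR and limma; the quantifier is not given in the sources used here, and reads shared between isoforms or paralogs were divided by it.

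Here transcripts were matched to GENCODE vM21 (114200 of 115088), and estimated counts were summed per gene, rounded, filtered with filterByExpr (minimum count 10, total 15), scaled by TMM and tested with edgeR 4.0.16 (robust quasi-likelihood, Benjamini-Hochberg over 16154 genes, threshold 0.05) in R 4.3.3. SEs and 95% intervals are from that fit. Depth was 59036535 to 82591064 estimated reads, and the biological coefficient of variation was 0.536. Levels between genes are in TPM, comparisons between tumours in CPM, and correlations and scores in log2 CPM (prior count 2). The 4 gene pairs were tested with 100000 two-sided permutations. The members and lists were chosen with earlier results of these data known, so scores carry no p and the p of the gene pairs are no independent evidence. Fully described genes are Hmgcs1, Idi1, Sqle, Cyp51, Srebf1, Srebf2, Insig1, Fasn, Acly, Scd1, Scd2, Abca1, Abcg1 and any member at an unadjusted p under 0.05; other pathway genes are named by smallest p, at most 4 per list. In a check on simulated counts the fit recovered 3 of 50 genes changed 1.5-fold and 17 of 50 changed 2-fold. At 4-fold it recovered 36 of 50 and at 8-fold 42 of 50, so that most changes of 2-fold or 1.5-fold were missed in that check. Alternatives were 3 other scalings, DESeq2 1.42.0, limma-voom (limma 3.58.1) with and without quality weights, 2 other filters, counts rebuilt from TPM and length, an animal-number covariate, pseudocounts of 1 and 0.1 for TPM scores, each tumour left out in turn, and the 3 apart tumours left out.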

Additional observations from a re-analysis of the deposited data

Results flagged for a closer look

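In a group of 8 tumours, a value counts as lying alone when its gap to the nearest other tumour exceeds 0.526 of the group's range. Of 86 groups examined 9 met this, and chance alone gives about 1 in 20. All 9 were in anti-PD-1 replicate 6 or IgG2a replicate 7. In anti-PD-1 replicate 6, the phosphomevalonate kinase Pmvk was alone at 6.00 log2 CPM, above 4.37 to 5.11 in the other 7 anti-PD-1 tumours. Ebp was alone there at 5.85 log2 CPM, above 4.60 to 5.15, and Elovl5 at 6.65 log2 CPM, below 6.99 to 7.21. The lipogenic score of the same tumour was 5.59, below 6.02 to 6.39. In IgG2a replicate 7, Scd1 was alone at 11.93 log2 CPM, above 6.56 to 7.31 in the other 7 IgG2a tumours, and Abca1 at 8.14 log2 CPM, above 4.71 to 5.49. Fdps was alone there at 5.24 log2 CPM, below 7.01 to 8.01, and Elovl6 at 4.20 log2 CPM, below 5.64 to 6.88. The LXR and sterol transport score was 6.58 in that tumour, above 5.50 to 5.94. The part of the marker and length measures of these tumours in the values was not tested.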

How the results depend on the processing

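No paired analysis was possible because the labels give each animal a number of its own; the replicate numbers used here are only names and pair no animals. The called genes stayed at 0, also with each tumour left out (0 to 0), except that DESeq2 called 1 gene; members called stayed at 0 under all alternatives. Members at an unadjusted p under 0.05 numbered 2 in the main fit, 1 with DESeq2, 0 with limma-voom, 4 with quality weights, 1 with the animal-number covariate, 4 without the 3 tumours that stood apart, and 2 to 3 with each tumour left out. The background of 1836 genes at that p was 1209 without anti-PD-1 replicate 6 and 1160 without IgG2a replicate 7. Several estimates changed sign, among them those of Scd1, Abca1 and Fasn, which were not near 0 in the main fit. Quality weights gave -0.021 for Sqle, 8.8e-05 for Insig1, -0.047 for Scd2 and 0.058 for Abca1, and leaving out the 3 tumours gave -0.13 for Sqle, 0.081 for Scd1, -0.081 for Scd2 and 0.46 for Abca1. Srebf1 was 0.020 with upper-quartile scaling and 0.0031 with no filter, Srebf2 0.024 with limma-voom, Fasn 0.11 with counts rebuilt from TPM and length, and Scd1 0.0093 with DESeq2. With each tumour left out the log2 fold changes ran from -0.024 to 0.24 for Sqle, -0.049 to 0.018 for Srebf1, -0.18 to 0.037 for Srebf2, -0.14 to 0.041 for Insig1, -2.45 to 0.0080 for Scd1, -0.023 to 0.25 for Scd2 and -0.71 to 0.47 for Abca1. The r of Hmgcs1 with Fasn was -0.0021 with DESeq2 size factors and -0.093 to 0.19 with each tumour left out. The r of Hmgcs1 with Sqle was 0.60 with a pseudocount of 1, 0.60 with 0.1 and 0.80 without the 3 tumours (adjusted permutation p = 0.024, 0.026 and 0.0019), and 0.42 to 0.73 with each tumour left out. The r of the sterol with the lipogenic score was 0.42 with a pseudocount of 1, 0.36 with 0.1, 0.61 without the 3 tumours and -0.21 to 0.16 with each tumour left out. Apart from the settings whose make-up shows it (fewer tumours, another scale), the cause was not tested. Acacb, with as few as 96 reads in a tumour, had the least depth.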

Other observations

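Outside the 39 genes, those whose log2 CPM was most like the sterol score over 16 tumours, among the 9532 coding genes whose log2 CPM averaged 3 or more, included Aacs, the acetoacetyl-CoA synthetase and a member of the list of other SREBP pathway genes, with r = 0.95 (0.88 over 13 tumours), Cnn3 with 0.92 (0.91), Pcyt2, an enzyme of phosphatidylethanolamine synthesis, with 0.91 (0.92), and Acsl3, an acyl-CoA synthetase of the same list, with 0.89 (0.90). Those most like the LXR and sterol transport score included Entpd1 with r = 0.97 (0.97 over 13 tumours), Fam107b with 0.96 (0.93) and Plek with 0.96 (0.97). These are descriptions over the same tumours, chosen by their likeness, with no test.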
